A study of Mus musculus with 21 samples.

Results

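The time-of-day difference of every gene in IgA+ plasma cells (IgA+ PCs) was compared between mice with and without the clock gene *Arntl* in their B lineage. The measure was the interaction, which is the log2 change from ZT0 to ZT12 in knockout mice minus the same change in control mice. It was fitted over all 21 mice of the series and over the 20256 genes, of 53801 in the table, that had at least 10 counts in all. A negative interaction means that the change in knockout mice lay below that in control mice, and a positive one that it lay above. Zeitgeber time (ZT) counts hours from lights on. The mice were on a C57BL/6 background, all were homozygous for a floxed *Arntl* allele, and their ages were not given in the sources used here. Control mice were *Mb1*Cre-/- x *Arntl*fl/fl littermates, with 6 mice at ZT0 and 6 at ZT12. Knockout mice were *Mb1*Cre+/- x *Arntl*fl/fl, with 4 mice at ZT0 and 5 at ZT12. The Cre sits in the *Mb1* locus, the gene *Cd79a*, and acts from early B cell development on. Its insertion also takes the place of 1 functional *Mb1* allele, which the littermates keep. Genotypes were read from the sample titles and column names, because in 8 of the 9 knockout samples the genotype field gives the control genotype.

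The cellular clock is a feedback loop of transcription factors. Bmal1, the protein of *Arntl*, pairs with Clock on E-box sequences and drives the genes of the Per and Cry repressors, of the Rev-erb receptors that in turn repress *Arntl*, and of the output factors *Dbp* and *Tef*. Plasma cells devote most of their messenger RNA to antibody and depend on a large endoplasmic reticulum (ER), on ribosomes and on mitochondria. The comparison asks which of their time-of-day differences are present in mice of 1 genotype only, or run in opposite directions, when the B lineage lacks its own clock.

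Sort-purified CD138+ IgA+ cells of the small intestinal lamina propria gave 1 poly-A library a mouse, with 14471018 to 22785835 counts. Immunoglobulin genes took 51.5% to 63.6% of them. Plasma cell markers were high in all libraries, *Cd79a* separated the genotypes (at most 276 CPM in knockout and at least 386 CPM in control mice, where CPM are counts scaled by the TMM method to a common library size), and *Arntl* is described below with the other clock genes. Libraries stood apart from their groups in a trend of expression on gene length. The slope of a library's log2 deviation on log2 gene length was -0.25 in control ZT12 replicate 2, -0.15 in control ZT12 replicate 4 and -0.13 in knockout ZT0 replicate 3, where negative values mean that short transcripts were relatively abundant, and it lay between -0.069 and 0.10 in the other 18 libraries. The same 3 libraries had immunoglobulin shares of 63.6%, 59.5% and 59.4%. Knockout ZT0 replicate 3 was the library of the smallest group with the highest *Arntl* level of all knockout mice (6.47 CPM), and it carried *Ddx3y* at 20.7 CPM in spite of high *Xist*, where the other high-*Xist* libraries had at most 2.23 CPM. Most nominal interactions are therefore also given without knockout ZT0 replicate 3 or without all 3.

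At a Benjamini-Hochberg adjusted p under 0.05, edgeR called 0 genes in the interaction (0% of the genes tested, smallest adjusted p = 0.138). DESeq2 in place of edgeR called 4 (*Tef*, *Vegfa*, *Smim10l2a* and *Hist1h4n*). An unadjusted p under 0.05, here called nominal, was reached by 2191 genes with edgeR (10.8%) and by 2030 with DESeq2. Of the 2191, 1050 lay above 0 (5.18%) and 1141 below 0 (5.63%). Without knockout ZT0 replicate 3 the number was 1055 of 20109 genes (5.25%), and without all 3 libraries with the steepest length trend it was 738 of 19813 (3.72%). The number of nominal genes thus depended on 1 to 3 libraries. With scaling by library size alone in place of TMM, the median interaction of all genes was 0.19 and the split was 1434 above and 520 below 0, so that directions are given relative to the TMM scale.

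The nominal genes were divided by what happened within each genotype. In 1122 genes (5.54% of those tested) the change was nominal in control mice and not in knockout mice. These control-only genes held 576 with an interaction below 0 and 546 above 0. In 494 genes (2.44%) the change was nominal in knockout mice and not in control mice, with 283 below 0 and 211 above 0. In 50 genes (0.247%) both changes were nominal and had opposite signs, with 34 below 0 and 16 above 0. Leaving out knockout ZT0 replicate 3 left 550 control-only, 251 knockout-only and 15 opposite genes, and leaving out all 3 libraries left 281, 230 and 11. Within the genotypes, control mice had 192 called genes higher at ZT12 (0.948%) and 158 lower (0.78%). Knockout mice had 0 called genes (0%, with 1622 nominal genes), while DESeq2 called 1052 genes in control and 47 in knockout mice. These counts, like those of the classes, are not matched in power. Control mice numbered 6 at each time, and knockout mice 4 at ZT0 and 5 at ZT12. Among the 192 genes higher in control mice the median log2 change was 0.67 in control and 0.12 in knockout mice. Among the 158 lower genes it was -0.57 and -0.17. Both sets were chosen by their control change in these same data. Smaller knockout medians therefore follow in part from the choice, and the values are a description only.

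*Tef* (thyrotroph embryonic factor, a PAR bZIP transcription factor and clock output gene) had the smallest interaction p of all genes. Its level in control mice was 17.3 CPM (14.3 to 18.1) at ZT0, where the median is given with the lowest and highest mouse in parentheses as in all groups of 6, and 27.9 CPM (23 to 30.5) at ZT12. The knockout mice had 19.9, 22, 25.9 and 23.3 CPM at ZT0, and at ZT12 22.1, 20.7, 22.5, 20.6 and 23.6 CPM. All control mice at ZT12 lay above all control mice at ZT0, while the knockout mice of both times overlapped and lay above the control mice at ZT0. *Tef* rose in control mice by 0.71 (SE 0.09, adjusted p = 0.000438 from edgeR), the change in knockout mice was -0.058 (SE 0.10, adjusted p = 0.924), and the interaction was -0.76 (SE 0.14, adjusted p = 0.138 from edgeR and 0.00114 from DESeq2). The interaction of *Tef* was -0.70 without knockout ZT0 replicate 3 and -0.67 without the 3 libraries. In both of these fits edgeR called no gene, and the smallest adjusted p of any gene was 0.62 and 0.9998. With each library's length trend removed the interaction of *Tef* was -0.94, and edgeR called it (adjusted p = 0.0371).

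Upstream bases of *Tef* are shown because it had the smallest interaction p and because Bmal1 and Clock bind E-boxes. The sequences are RefSeq windows of build GRCm38.p6 upstream of annotated starts, 5′ to 3′ on the strand of the gene, with the E-box CACGTG in capitals. This motif is its own reverse complement, so a match covers both strands. Each of 2 annotated starts of *Tef* has 1 E-box, at chr15:81802496-81802601 (plus strand, beginning 127 bases before the start) and at chr15:81811226-81811331 (plus strand, 138 bases before).
Tef, first start: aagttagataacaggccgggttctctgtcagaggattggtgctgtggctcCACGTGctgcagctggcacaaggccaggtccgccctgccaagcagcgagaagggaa
Tef, second start: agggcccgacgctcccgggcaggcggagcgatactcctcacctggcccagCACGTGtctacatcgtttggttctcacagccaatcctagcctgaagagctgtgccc
In the 250 bases upstream of annotated starts, an E-box of these letters was found for 1978 of all 32851 windows (6.02%) and for 1116 of the 12258 tested genes that have a window (9.1%). It was found for 80 of 726 control-only genes (11%), 34 of 283 knockout-only genes (12%) and 5 of 25 opposite genes (20%). The shares of these classes lay within a few percentage points of that of the tested genes, apart from the last, which rests on 5 genes. A match describes the letters of the window and not binding.

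No other clock gene came near the interaction p of *Tef*, although several, among them *Dbp* and *Rora*, had interactions farther from 0 with larger errors. *Arntl* itself was 7.92 CPM (6.83 to 8.36) in control mice at ZT0 and 4.49 CPM (4 to 5.56) at ZT12, with no overlap. Knockout levels were 4.51, 4.08, 6.47 and 4.42 CPM (ZT0), then 3.39, 4.93, 3.97, 4.06 and 3.11 CPM (ZT12), which overlapped. It fell by 0.78 in control mice (SE 0.15, adjusted p = 0.0149 from edgeR), the change in knockout mice was -0.32 (SE 0.18), and the interaction was 0.45 (SE 0.23, adjusted p = 0.476). These counts cover the whole gene, including exons outside the floxed part. Of the 26 clock genes tested, 3 reached the nominal threshold in the interaction, which were *Tef*, *Dbp* and *Clock*. With 1 above 0 (3.85%) and 2 below (7.69%), the list lay near all genes tested (5.18% and 5.63%).

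*Dbp*, the close relative of *Tef* and a direct target of Bmal1, differed from it. Its level in control mice was 6.46 CPM (3.07 to 7.54) at ZT0 and 6.33 CPM (2.8 to 9.96) at ZT12, and in knockout mice 8.96, 5.74, 10.8 and 7.9 CPM at ZT0, then 6.78, 4.38, 5.38, 5.54 and 2.7 CPM at ZT12. The control mice overlapped widely and the knockout mice tended lower at ZT12 with overlap. The changes were 0.087 (SE 0.26) in control and -0.75 (SE 0.30) in knockout mice, with an interaction of -0.84 (SE 0.40, adjusted p = 0.459 from edgeR, and -0.79 without the 3 libraries). For *Clock*, the partner of Bmal1, the values were -0.14, 0.29 and 0.44 (SE 0.21, adjusted p = 0.455), and without the 3 libraries its interaction was 0.19. *Per2*, a repressor of the loop, had an interaction of -0.71 (SE 0.36, adjusted p = 0.476), which was -0.97 without the 3 libraries. *Per1*, *Per3*, *Cry1*, *Cry2* and *Nr1d2* all had interactions below 0, from -0.37 (SE 0.23) for *Per3* to -0.17 (SE 0.16) for *Cry2*, none of them nominal. *Rora* (0.87, SE 0.64) and *Nfil3* (0.60, SE 0.31), an activator and a repressor acting on clock targets, had interactions above 0 that were not nominal either. *Bhlhe40*, *Bhlhe41* and *Nr1d1* had interactions of 0.11, -0.19 and 0.17, none of them nominal and with signs that depended on the fit.

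*Ciart*, a repressor of Bmal1 and Clock, is shown as a second example of a clock gene promoter, since it holds 3 E-boxes. They begin 116, 58 and 44 bases before the start (chr3:95882229-95882394, minus strand, GRCm38.p6).
Ciart: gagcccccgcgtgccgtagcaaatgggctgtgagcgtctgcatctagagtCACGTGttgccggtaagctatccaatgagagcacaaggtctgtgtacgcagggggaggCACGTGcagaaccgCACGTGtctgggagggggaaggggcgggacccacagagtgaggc
The changes of *Ciart* were 1.02 (SE 0.32, adjusted p = 0.0981 by edgeR) in control mice and 0.51 (SE 0.37) in knockout mice. Its interaction of -0.51 (SE 0.49) was not nominal, and was 0.017 without the 3 libraries.

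**Figure D1:**
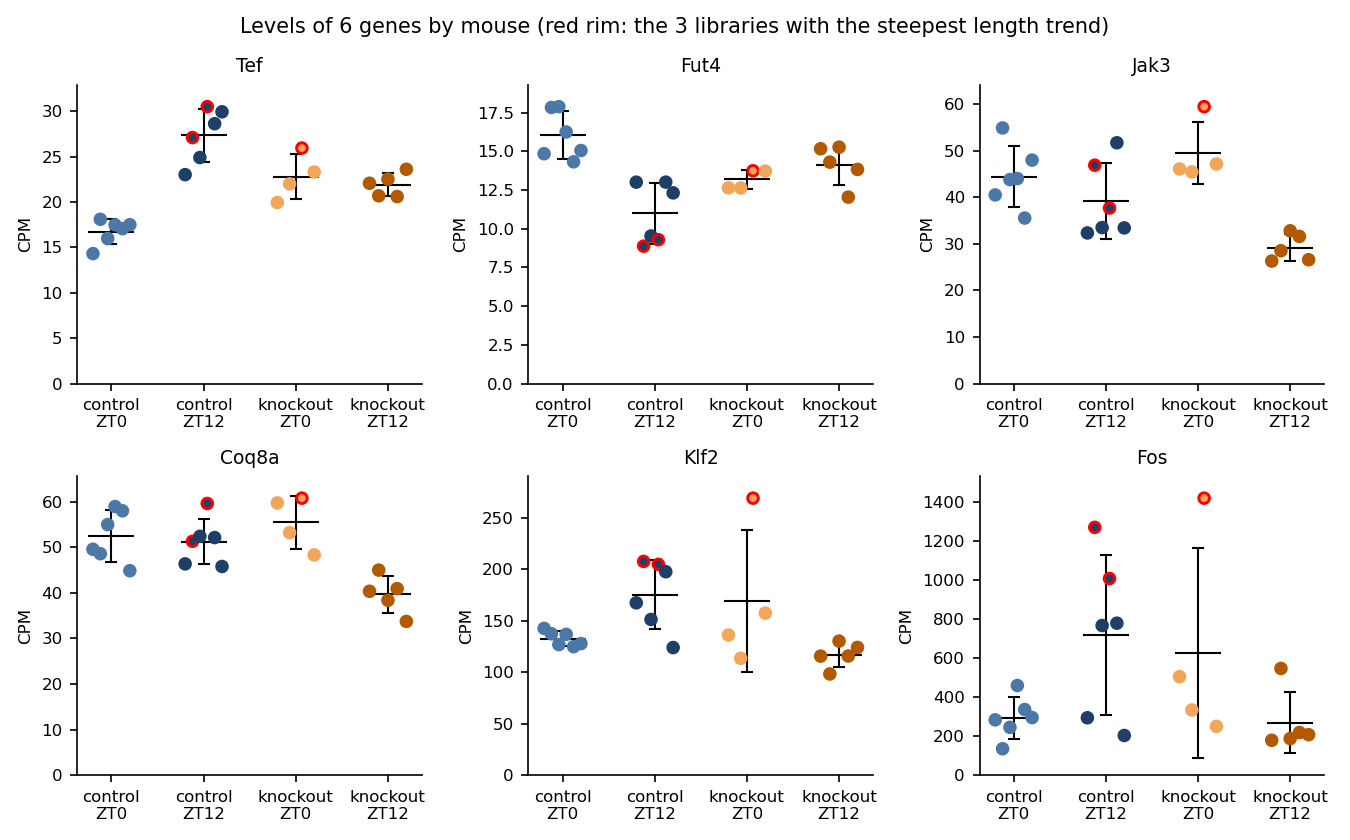
Level (CPM, y axis) of *Tef*, *Fut4*, *Jak3*, *Coq8a*, *Klf2* and *Fos* in each mouse (points), by genotype and time (x axis), with the group mean and SD (bars) and a red rim on the 3 libraries with the steepest length trend. *Tef* and *Fut4* separate the times in control mice without overlap, *Jak3* and *Coq8a* do so in knockout mice, and the opposite patterns of *Klf2* and *Fos* have their highest knockout ZT0 value in a rimmed library.

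Beside *Tef*, the control-only genes of at least 5 CPM with the smallest interaction p were *Fut4*, *Rbl2*, *Ifrd1*, *Tnk2* and *Sept6*. Genes of each class were chosen by their changes in these same values. Levels without overlap between times are therefore a description and no separate support. The share of all genes without overlap was not computed. *Fut4*, a fucosyltransferase that makes Lewis x glycans, was 15.6 CPM (14.3 to 17.9) in control mice at ZT0 and 10.9 CPM (8.87 to 13) at ZT12. Among knockout mice the levels were 12.6, 12.6, 13.7 and 13.7 CPM for ZT0 and 15.2, 14.3, 15.3, 12 and 13.8 CPM for ZT12. The control mice did not overlap and the knockout mice did. *Fut4* fell by 0.54 in control mice (SE 0.11, adjusted p = 0.0197 from edgeR), the change in knockout mice was 0.10 (SE 0.13), and the interaction was 0.64 (SE 0.17, adjusted p = 0.442), with 0.66 without knockout ZT0 replicate 3 and 0.53 without the 3 libraries.

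*Smim10l2a*, a gene for a small membrane protein that DESeq2 called in the interaction, was 2.48 CPM (2.1 to 3.1) in control mice at ZT0 and 1.05 CPM (0.486 to 1.53) at ZT12, with no overlap. Its knockout levels were 1.37, 1.4, 0.867 and 1.64 CPM at ZT0, with 1.29, 2.62, 1.61, 2.9 and 1.76 CPM at ZT12, which overlapped. It fell by 1.30 in control mice (SE 0.29, adjusted p = 0.0274 from edgeR), the change in knockout mice was 0.62 (SE 0.34), and the interaction was 1.91 (SE 0.45, adjusted p = 0.442 from edgeR and 0.0467 from DESeq2). The value was 1.47 without the 3 libraries.

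Other control-only genes had changes called in control mice with larger dependence on single libraries. *Ckb*, the brain-type creatine kinase that buffers ATP, was 18.7 CPM (17.1 to 24.9) and 27.4 CPM (21.5 to 43.2) at ZT0 and ZT12 in control mice, with overlap. The knockout mice had 23.5, 19.3, 29.5 and 30.4 CPM at ZT0, and at ZT12 24, 25.2, 22.3, 22.8 and 26.9 CPM, where the times overlapped fully. It rose in control mice by 0.63 (SE 0.14, adjusted p = 0.0252 from edgeR), and its interaction was -0.71 (SE 0.21, adjusted p = 0.442), with -0.63 without the 3 libraries. *Ifrd1*, a transcriptional co-regulator, rose in control mice by 0.59 (adjusted p = 0.0426 from edgeR) beside -0.19 in knockout mice, with an interaction of -0.78 (SE 0.23) that was -0.44 without the 3 libraries. The gene of the kinase *Tnk2* fell in control mice (change -0.53, adjusted p = 0.0426 from edgeR) beside 0.17 in knockout mice, with an interaction of 0.71 (SE 0.21) that was 0.47 without them. *Rbl2*, a relative of the retinoblastoma protein, the septin gene *Sept6* and the kinase gene *Abl2* were not called in control mice, and their interactions of 0.63, 0.49 and 0.81 were 0.37, 0.35 and 0.58 without the 3 libraries.

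The knockout-only genes are the reverse case, and none of them was called within the knockout mice. Here too a lack of overlap between times describes genes that were chosen by that change. *Jak3*, the kinase of the common gamma chain cytokine receptors, was 46.1, 45.5, 59.5 and 47.2 CPM at ZT0, then 26.3, 28.5, 32.8, 31.6 and 26.6 CPM at ZT12 in knockout mice, with no overlap. In control mice it was 43.9 CPM (35.6 to 54.9) at ZT0 and 35.6 CPM (32.4 to 51.7) at ZT12, with wide overlap. The changes were -0.76 (SE 0.14, adjusted p = 0.169 from edgeR) in knockout and -0.18 (SE 0.12) in control mice, with an interaction of -0.58 (SE 0.18, adjusted p = 0.442). The knockout change was -0.66 without knockout ZT0 replicate 3, the highest library of its group, and the interaction was then -0.48.

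*Coq8a* and *Coq8b*, which encode atypical kinases needed for coenzyme Q synthesis in mitochondria, had the same form. *Coq8a* was 59.8, 53.3, 60.8 and 48.4 CPM at ZT0, then 40.4, 45, 38.4, 40.9 and 33.7 CPM at ZT12 in knockout mice, without overlap, and 52.3 CPM (44.9 to 59) and 51.8 CPM (45.8 to 59.7) in control mice, which overlapped. Its changes were -0.48 (SE 0.11, adjusted p = 0.23 from edgeR) in knockout and -0.034 (SE 0.093) in control mice, and the interaction of -0.45 (SE 0.14) was -0.40 without knockout ZT0 replicate 3. *Coq8b* was 5.99, 7.21, 7 and 6.16 CPM and 5.05, 5.54, 3.36, 5.54 and 4.22 CPM in knockout mice, also without overlap, with changes of -0.47 in knockout and 0.28 in control mice and an interaction of -0.76 (SE 0.24, -0.73 without that library). Neither gene was called.

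*Dcaf10*, a substrate receptor of the CUL4 ubiquitin ligase, went the other way in knockout mice, with 18.5, 16.6, 14.3 and 16.5 CPM at ZT0, then 22.8, 24.3, 21.3, 23.1 and 22.3 CPM at ZT12, without overlap, and 20.3 CPM (16.4 to 24.8) and 17 CPM (13.6 to 24.2) in control mice. The change in knockout mice was 0.47 (SE 0.14, adjusted p = 0.49 from edgeR), that in control mice -0.13 (SE 0.12), and the interaction 0.59 (SE 0.19, 0.53 without knockout ZT0 replicate 3). *Tmem161a* and *Snapc3*, the latter a subunit of the complex that transcribes small nuclear RNA genes, did not overlap between times in knockout mice either, with interactions of -0.62 (SE 0.18) and -0.56 (SE 0.18), and -0.56 and -0.50 without that library. *Nfkbid*, an atypical inhibitor of NF-kappaB, had changes of -0.47 in knockout and 0.17 in control mice, and its interaction of -0.64 (SE 0.21) was -0.64 without knockout ZT0 replicate 3. *Deptor*, an inhibitor of mTOR, had 1.06 (SE 0.34) in knockout and -0.10 (SE 0.29) in control mice, at a mean of only 2.57 CPM, with an interaction of 1.16 that was 0.64 without the 3 libraries.

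The 50 genes with nominal changes in opposite directions were led, among those of at least 5 CPM, by *Klf2*, *Ndor1*, *Kin*, *Tpcn1*, *Tcirg1* and *Gpd1l*. *Klf2*, a transcription factor of lymphocyte quiescence and migration, was 132 CPM (125 to 142) and 182 CPM (124 to 207) at ZT0 and ZT12 in control mice and 136, 113, 269 and 157 CPM and 115, 98.1, 130.1, 116 and 124 CPM in knockout mice. The times overlapped in both genotypes, and knockout ZT0 replicate 3 was the highest of all 21 mice. The changes were 0.40 (SE 0.15) in control and -0.53 (SE 0.18) in knockout mice, with an interaction of -0.94 (SE 0.23, adjusted p = 0.442 from edgeR). Without that library the knockout change was -0.22 and the interaction -0.62, and without the 3 libraries the interaction was -0.50.

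*Kin*, a DNA- and RNA-binding protein, kept its interaction without these libraries. It was 12.2, 10.7, 9.07 and 10.1 CPM at ZT0, then 6.47, 8.82, 8.94, 7.85 and 6.56 CPM at ZT12 in knockout mice, without overlap, and 8.63 CPM (7.04 to 10.1) and 10.2 CPM (9.25 to 11.6) in control mice, which overlapped. Its changes were 0.26 (SE 0.12) in control and -0.45 (SE 0.14) in knockout mice. The interaction was -0.71 (SE 0.19, adjusted p = 0.442 from edgeR) with all mice, -0.77 without knockout ZT0 replicate 3 and -0.76 without the 3 libraries.

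*Ndor1*, a reductase of cytosolic iron-sulfur cluster assembly, was 18.2 CPM (15.2 to 20.4) and 13.6 CPM (10.2 to 15.9) in control mice and 13.8, 16.2, 10.5 and 16.1 CPM and 17, 14.8, 18.4, 18.9 and 17.6 CPM in knockout mice at ZT0 and ZT12, with overlap in both genotypes. Its interaction was 0.73 (SE 0.19), and 0.54 without the 3 libraries. *Tpcn1* and *Tcirg1* encode a cation channel of endosomes and lysosomes and a subunit of the vesicular proton pump. Their interactions had opposite signs, 0.56 (SE 0.15) and -0.48 (SE 0.14), and were 0.38 and -0.35 without the 3 libraries. *Gpd1l* (0.61), *Atg5* (-0.56), an autophagy gene, and *Psmb9* (-0.58), an immunoproteasome subunit, moved to 0.40, -0.37 and -0.31.

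The other genes that DESeq2 called in the interaction had low and scattered levels. *Vegfa*, an angiogenic growth factor induced by low oxygen, was 0.778 CPM (0.589 to 1.77) and 6.25 CPM (1.7 to 32.6) in control mice and 4.89, 0.893, 12.2 and 0.795 CPM and 1.85, 1.7, 1.55, 0.451 and 2.17 CPM in knockout mice. Its 2 highest values were in control ZT12 replicate 2 and knockout ZT0 replicate 3, and the times overlapped in both genotypes. The interaction of -4.99 (SE 1.16) was -2.75 without the 3 libraries. *Hist1h4n*, a histone H4 gene with near-identical copies whose transcripts mostly lack a poly-A tail, so that its count is uncertain, had an interaction of -4.80 (SE 1.25) that was -2.25 without them.

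To describe functions, 44 gene lists were summarised by the median log2 change over their tested members in each genotype and by the number of members with a nominal interaction. Over all genes tested these medians were 0.0063 in control mice, 0.0055 in knockout mice and 0.014 for the interaction, and the nominal shares were 5.18% above and 5.63% below 0, as given above. Since no gene was called by edgeR, all counts that follow are of nominal genes. With scaling by library size alone, the median interactions of translation factors, proteasome subunits, lysosome, splicing, clock, ER translocation and N-glycosylation genes came to lie above 0, below the median of all genes on that scale.

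**Figure D2:**
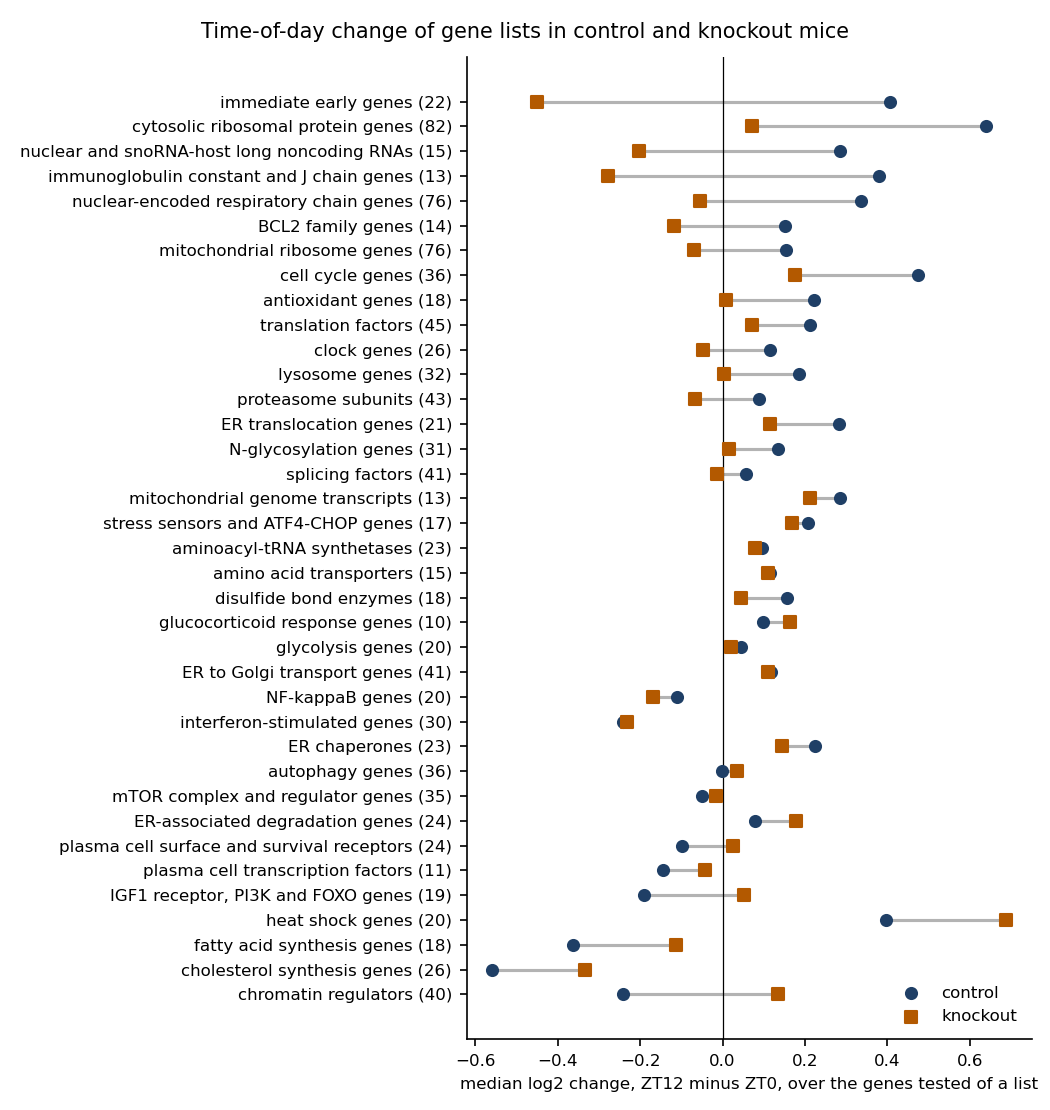
Median log2 change from ZT0 to ZT12 (x axis) in control mice (circles) and knockout mice (squares) for 37 gene lists (y axis, number of genes tested in parentheses), ordered by the median interaction. Immediate early genes sit at 0.41 in control and -0.45 in knockout mice, cytosolic ribosomal protein genes at 0.64 and 0.071, and chromatin regulators at -0.24 and 0.13, while cholesterol synthesis genes lie below 0 and heat shock genes above 0 in both genotypes.

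Cytosolic ribosomal protein genes, which encode the protein part of the translation machinery, had the largest share of nominal members among these lists. Their mean level relative to all mice, in log2 units, was -0.23 (-0.53 to -0.18) in control mice at ZT0 and 0.30 (-0.14 to 0.93) at ZT12. In knockout mice it was -0.069, -0.31, 0.44 and -0.23 at ZT0 and -0.083, 0.30, 0.064, -0.15 and -0.042 at ZT12. Control mice at ZT12 were all above those at ZT0, while in knockout mice the third library at ZT0 was higher than all 5 mice at ZT12. The median change was 0.64 in control and 0.071 in knockout mice. Of the 82 genes, 63 had a nominal interaction below 0 and 0 above, all 63 of them control-only, and in control mice alone 46 rose at the adjusted threshold. The median interaction was -0.60 with all mice, -0.40 without knockout ZT0 replicate 3 (4 nominal below 0), -0.15 without the 3 libraries (0 nominal) and -0.37 with the length trend removed (41 nominal).

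*Rps15*, of the small subunit, shows the range of a member. It was 136 CPM (126 to 150.4) and 218 CPM (147 to 337) in control mice and 169, 130.5, 224 and 163 CPM and 166, 206, 179.7, 162 and 165 CPM in knockout mice. Control ZT12 replicate 2 was highest and knockout ZT0 replicate 3 stood above its group, and the times overlapped in both genotypes. It rose in control mice by 0.68 (SE 0.15, adjusted p = 0.0229 from edgeR), the change in knockout mice was 0.036 (SE 0.17), and the interaction was -0.65 (SE 0.22, -0.28 without the 3 libraries). *Rps4x* and *Rpl35a* had interactions of -0.67 (SE 0.24) and -1.06 (SE 0.37), and -0.23 and -0.50 without them. Ribosomal protein genes have many processed pseudogenes that can share their reads.

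Translation factors followed with a smaller median. Their changes were 0.21 in control and 0.071 in knockout mice, with 11 of 45 nominal below 0 and 1 above. *Eif3k* and *Eif3m*, subunits of the initiation factor that binds the small ribosomal subunit, rose in control mice by 0.68 and 0.56 (adjusted p = 0.0197 for both from edgeR), beside 0.037 and 0.08 in knockout mice. Their interactions of -0.65 (SE 0.22) and -0.48 (SE 0.18) were -0.21 and -0.19 without the 3 libraries. The median interaction of the list was -0.19 with all mice and -0.062 without the 3 libraries. Aminoacyl-tRNA synthetases, which charge tRNAs, had 0.10 and 0.08, with 1 of 23 nominal above 0 and 3 below.

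Nuclear-encoded respiratory chain genes had median changes of 0.34 in control and -0.054 in knockout mice. Their mean level was -0.10 (-0.27 to -0.061) and 0.15 (-0.20 to 0.55) in control mice at ZT0 and ZT12, and -0.077, -0.085, 0.34 and -0.092 and -0.20, 0.013, 0.039, -0.18 and 0.12 in knockout mice. The third knockout library at ZT0 stood far above the other 3, which lay together, and the times overlapped in both genotypes. Of 76 genes, 29 were nominal below 0 and 0 above, 20 of them control-only and 2 knockout-only. The complex I subunit genes *Ndufb5*, *Ndufb9* and *Ndufa6* had interactions of -0.66 (SE 0.22), -0.70 (SE 0.25) and -0.53 (SE 0.20), which were -0.40, -0.46 and -0.43 without knockout ZT0 replicate 3. Without knockout ZT0 replicate 3 the list had a median interaction of -0.24 and 2 nominal members, and without the 3 libraries -0.10 and 0, against -0.38 with all mice.

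Mitochondrial ribosome genes, which serve translation inside mitochondria, had median changes of 0.15 and -0.069 and 12 of 76 nominal members, all below 0. *Mrps9*, *Mrps18c* and *Mrpl13* were knockout-only, with interactions of -0.49, -1.11 and -0.73, and of -0.35, -0.73 and -0.28 without the 3 libraries. The list median was -0.25, and -0.04 without the 3 libraries. Transcripts of the mitochondrial genome itself, 13 genes, had 0.29 in control and 0.21 in knockout mice and no nominal member, with a median interaction of -0.087. Glycolysis genes had medians of 0.046 and 0.022, with *Pfkp*, a phosphofructokinase, rising in control mice by 0.61 (adjusted p = 0.0274 from edgeR) beside -0.0066 in knockout mice.

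Immediate early genes, which are transcribed within minutes of a stimulus and also respond to tissue digestion, had the lowest median interaction of these lists. Their mean level was -0.079 (-0.46 to 0.21) and 0.48 (-0.53 to 0.58) in control mice at ZT0 and ZT12, with overlap. In knockout mice it was 0.079, -0.036, 0.66 and -0.21 at ZT0 and -0.32, 0.20, -0.44, -0.32 and -0.40 at ZT12, where the second mouse at ZT12 stood above the other 4. The median change was 0.41 in control and -0.45 in knockout mice. Of 22 genes, 14 were nominal below 0 and 0 above, 3 of them in opposite directions. The median interaction was -0.82, with -0.55 without knockout ZT0 replicate 3 (6 nominal) and -0.44 without the 3 libraries (1 nominal).

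*Fos*, a subunit of the AP-1 factor, was 289 CPM (135 to 459) in control mice at ZT0 and 773 CPM (203 to 1271) at ZT12. Knockout levels were 505, 334, 1421 and 249.9 CPM (ZT0), then 178, 547, 187, 218 and 207 CPM (ZT12). The 4 highest control mice at ZT12 were above all control mice at ZT0, the other 2 were within their range, and knockout ZT0 replicate 3 was the highest mouse of all. The changes were 1.30 (SE 0.50) and -1.23 (SE 0.57), with an interaction of -2.53 (SE 0.75, adjusted p = 0.442 from edgeR), which was -1.74 without knockout ZT0 replicate 3. *Junb*, a partner of *Fos*, had 0.57, -0.64 and -1.22 (SE 0.38), and -0.81 without that library. Whether the time from death to sort differed between groups is not given in the sources used here, and its part was not tested.

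Nuclear and snoRNA-host long noncoding RNAs had medians of 0.28 in control and -0.20 in knockout mice, and 7 of 15 were nominal, all below 0. *Kcnq1ot1*, an antisense RNA of an imprinted locus, had opposite changes of 0.78 and -0.76 and an interaction of -1.55 (SE 0.46, -1.03 without the 3 libraries). Whether the counting used strand is not given in the sources used here, so its reads cannot be told apart from those of the overlapping gene. The snoRNA hosts *Snhg6* and *Snhg15* had -0.83 (SE 0.26) and -0.81 (SE 0.28), and -0.39 and -0.24 without the 3 libraries. The list median was -0.52 with all mice and -0.24 without the 3 libraries.

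Of the functional lists, chromatin regulators had the highest median interaction. Their medians were -0.24 in control and 0.13 in knockout mice, and 12 of 40 were nominal, all above 0. The mean level in knockout mice was 0.075, 0.081, -0.34 and 0.10 at ZT0 and 0.078, -0.082, 0.18, 0.24 and 0.085 at ZT12, and in control mice 0.10 (0.025 to 0.17) and -0.13 (-0.70 to 0.20). The third knockout library at ZT0 and replicates 2 and 4 of the control mice at ZT12 were the lowest mice. *Setd1b*, *Kmt2c* and *Kmt2d*, methyltransferases of histone H3 lysine 4, had interactions of 0.77 (SE 0.29), 0.54 (SE 0.22) and 0.41 (SE 0.17), and 0.42, 0.27 and 0.23 without the 3 libraries. The median interaction of 0.35 was 0.093 without the 3 libraries and 0.11 with the length trend removed. The median length of these genes was 12334 bases, against 3093 over all genes tested.

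**Figure D3:**
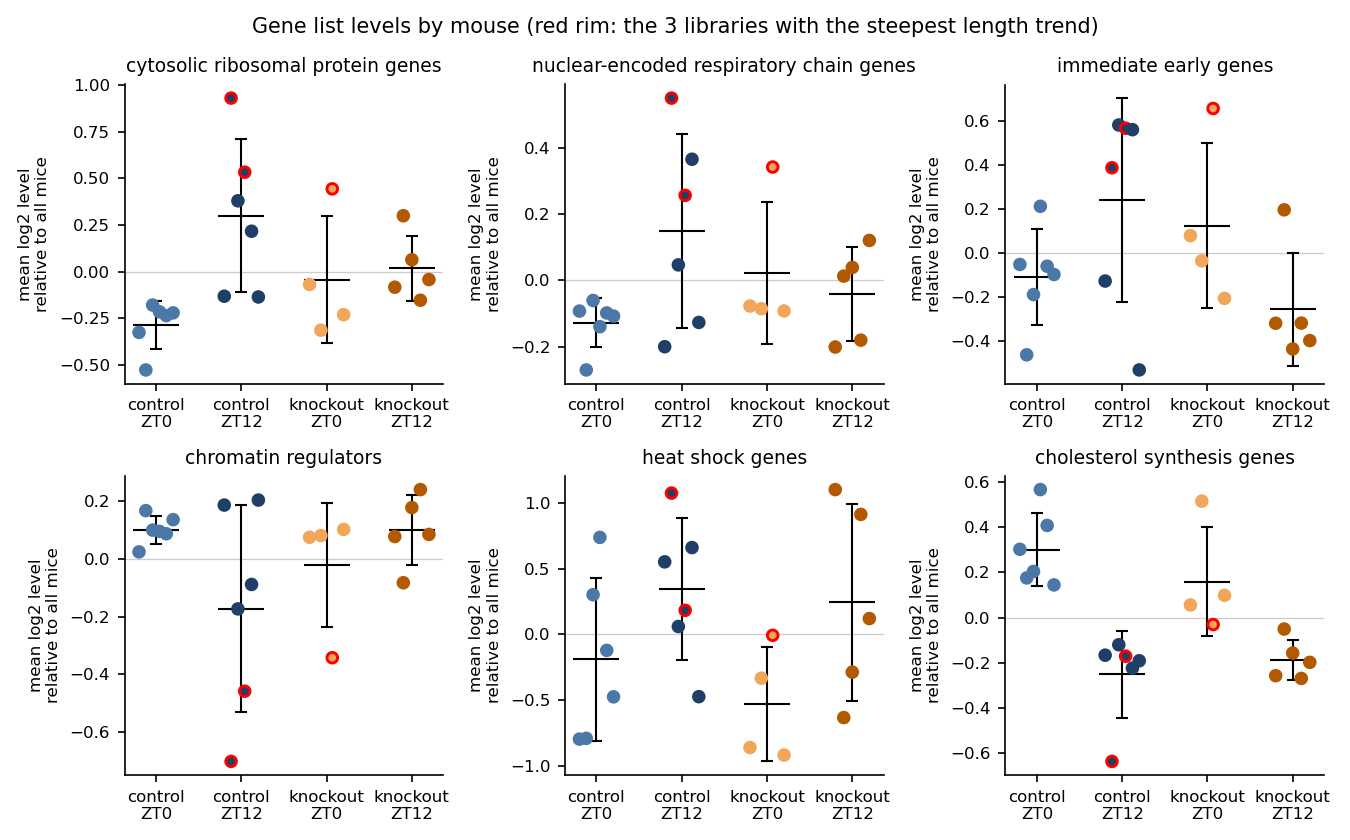
Mean log2 level of 6 gene lists relative to all mice (y axis) in each mouse (points), by genotype and time (x axis), with group mean and SD (bars) and a red rim on the 3 libraries with the steepest length trend. The rimmed knockout ZT0 library stands apart from its group for the respiratory chain, where it is at 0.34 and the others at -0.092 to -0.077, and for chromatin regulators, where it is at -0.34, and cholesterol synthesis genes separate the times in both genotypes.

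Splicing factors had members in both directions, 4 nominal above and 9 below 0 of 41, with medians of 0.058 and -0.013. *Srsf4* was knockout-only (0.47 in knockout and -0.15 in control mice) and *U2af1*, which recognises the 3′ splice site, control-only (0.38 in control and -0.18 in knockout mice).

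Lists of the secretory pathway of plasma cells had median interactions of both signs. They ran from -0.17 for ER translocation genes to 0.083 for ER-associated degradation genes. ER chaperones, which fold antibody chains, had medians of 0.22 in control and 0.15 in knockout mice, a median interaction of 0.028, and 1 of 23 nominal below 0. ER to Golgi transport genes had 0.12 and 0.11 with a median interaction of -0.024. ER translocation genes had 0.28 and 0.12 with 3 of 21 nominal below 0, among them *Srp9*, of the signal recognition particle, which rose in control mice by 0.57 (adjusted p = 0.0244 from edgeR) beside 0.10 in knockout mice, and *Sec61b*, of the translocation channel (-0.54, SE 0.25, -0.046 without the 3 libraries).

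Enzymes of disulfide bond formation had 0.16 and 0.044 with 3 of 18 nominal below 0, including *Erp29* (-0.59, SE 0.24, -0.19 without the 3 libraries) and *Prdx4* (-0.56, SE 0.27). *Prdx4* was at -0.36 without knockout ZT0 replicate 3 and at 0.0065 with the immunoglobulin share as a term of the fit. N-glycosylation genes had 0.13 and 0.015 with 1 above and 2 below 0. ER-associated degradation genes, which remove misfolded chains, had 0.078 and 0.18 with 2 of 24 nominal above 0, among them *Edem3* (0.54, SE 0.22, 0.20 without the 3 libraries), which was knockout-only. Stress sensor and ATF4-CHOP genes had 0.21 and 0.17 with 1 of 17 nominal above 0 and 2 below. *Eif2ak3*, the ER stress sensor PERK, was the nominal one above 0 (0.41, SE 0.19, 0.23 without the 3 libraries), and *Ddit3* (-0.71, SE 0.33) and *Atf4* (-0.45, SE 0.20) were control-only, with -0.18 and -0.14 without these libraries. *Xbp1*, the transcription factor that builds the secretory apparatus, was control-only as well. It was 2064 CPM (1855 to 2102) and 2384 CPM (1933 to 3022) in control mice and 2159, 1908, 2672 and 1915 CPM and 2135, 2323, 1908, 2098 and 2027 CPM in knockout mice, with overlap in both genotypes and an interaction of -0.33 (SE 0.15, -0.09 without the 3 libraries).

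Proteasome subunits had medians of 0.088 in control and -0.066 in knockout mice, with 9 of 43 nominal below 0 and 1 above. *Psmb9* and *Psme1*, of the immunoproteasome and its activator, had opposite changes (0.27 and -0.31 for *Psmb9*, 0.28 and -0.34 for *Psme1*), and *Psmb5*, a catalytic subunit, was knockout-only (-0.53, SE 0.19, -0.22 without the 3 libraries). The list median of -0.17 was -0.02 without the 3 libraries. Lysosome genes had 0.19 and 0.0042 with 4 of 32 nominal below 0, all control-only. Autophagy genes were split, 4 above and 4 below 0 of 36, with medians of -0.0019 and 0.036.

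*Lamp1*, a glycoprotein of the lysosomal membrane, was 14.3 CPM (11.7 to 16.5) in control mice at ZT0 and 24.7 CPM (16.3 to 28.1) at ZT12. Among knockout mice the levels were 16.4, 18.8, 15.1 and 15 CPM for ZT0 and 22, 27.3, 17.8, 14.2 and 15.9 CPM for ZT12. In control mice 1 ZT12 mouse lay within the ZT0 range, and in knockout mice the 2 highest mice were at ZT12 and the rest overlapped. *Lamp1* rose in control mice by 0.76 (SE 0.14, adjusted p = 0.0115 from edgeR), the change in knockout mice was 0.25 (SE 0.17), and the interaction of -0.51 (SE 0.22, adjusted p = 0.444) was -0.51 without the 3 libraries. Its upstream window is shown because it held 4 E-boxes, the most among the genes recomputed under each alternative, beginning 61, 45, 28 and 15 bases before the start (chr8:13159050-13159160, plus strand, GRCm38.p6).
Lamp1: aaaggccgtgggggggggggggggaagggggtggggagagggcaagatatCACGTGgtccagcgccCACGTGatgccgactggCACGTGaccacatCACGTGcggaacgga
Of the 74 genes recomputed under each alternative that have a window, 12 held at least 1 E-box of these letters.

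Signalling genes had nominal members in both directions. mTOR complex and regulator genes had medians of -0.051 and -0.015, with 6 of 35 nominal above 0 and 2 below, and 0 and 1 without the 3 libraries. *Tsc1*, an inhibitor of mTOR complex 1, fell in control mice (change -0.51, adjusted p = 0.0256 from edgeR) beside -0.059 in knockout mice, with an interaction of 0.45 (SE 0.17, 0.26 without these libraries), and *Nprl3*, of the amino acid sensing GATOR1 complex, was knockout-only (-0.49, SE 0.17, -0.41 without them). IGF1 receptor, PI3K and FOXO genes had -0.19 and 0.052, with *Pik3r1* (0.66, SE 0.23, 0.35 without the 3 libraries), the regulatory subunit of PI3K, and *Foxo3* (0.55, SE 0.21, 0.25 without them) nominal above 0. Of 10 glucocorticoid response genes 3 were nominal above 0 and 1 below, and the list median was -0.039. *Nr3c1*, the receptor itself, had 0.73 (SE 0.25, 0.41 without the 3 libraries). *Sgk1* had 0.71 (SE 0.27, 0.39 without them and -0.02 in low-*Xist* libraries). *Zbtb16*, at a mean of only 0.415 CPM and picked by its interaction p, had 3.45 (SE 1.20, 2.68 without them). *Tsc22d3*, which encodes a glucocorticoid-induced leucine zipper protein, was the nominal member below 0 (-0.75, SE 0.29, -0.36 without them). It was named outside the naming rule. NF-kappaB genes had medians of -0.11 and -0.17, with 4 of 20 nominal below 0, among them *Nfkbid*, and 1 above, and 1 below and 0 above without the 3 libraries. Interferon-stimulated genes had -0.24 and -0.23, with 3 of 30 nominal below 0 and 0 above, and 1 and 0 without them.

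Antioxidant genes had 0.22 and 0.0075 with 4 of 18 nominal below 0, among them *Gpx4* (-0.74, SE 0.24, -0.31 without the 3 libraries), which reduces lipid peroxides, and *Sod2* (-0.49, SE 0.19, -0.21 without them) of the mitochondrial matrix. BCL2 family genes, which set the threshold of apoptosis, had 0.15 and -0.12 with 3 of 14 nominal below 0, and the pro-apoptotic *Bcl2l11* had 1.03 (SE 0.33) in control and -0.035 (SE 0.38) in knockout mice, with an interaction of -1.07 that was -0.62 without the 3 libraries. Plasma cell transcription factors had medians of -0.15 and -0.043. Of them *Ikzf3* (Aiolos) fell in control mice (change -0.37, adjusted p = 0.0473 from edgeR) beside -0.043 in knockout mice, with an interaction of 0.33 (SE 0.15, 0.16 without the 3 libraries). Plasma cell surface and survival receptors had -0.10 and 0.026, amino acid transporters 0.11 and 0.11, and cell cycle genes 0.47 and 0.18, with 1 above and 4 below 0 of 24, 2 below of 15, and 1 above and 2 below of 36.

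Some lists had median changes of the same sign in both genotypes. Cholesterol synthesis genes had medians of -0.56 in control and -0.33 in knockout mice, and 19 and 14 of 26 members were nominally lower at ZT12 in the respective genotype. Their mean level was 0.25 (0.14 to 0.57) and -0.18 (-0.64 to -0.12) in control mice and 0.056, 0.52, -0.031 and 0.10 and -0.26, -0.051, -0.16, -0.27 and -0.20 in knockout mice at ZT0 and ZT12. The times did not overlap in either genotype. In the interaction 2 members were nominal above 0 and 1 below, and the median of 0.20 was 0.026 without the 3 libraries. *Mvk*, mevalonate kinase, was the one member that was called in control mice and nominal in the interaction. It was 6.36 CPM (6.05 to 8.06) and 3.57 CPM (2.37 to 4.96) in control mice, without overlap, and 6.59, 5.42, 6.4 and 6.01 CPM and 3.45, 5.78, 6.39, 4.51 and 3.98 CPM in knockout mice, with overlap. It fell in control mice by 0.94 (SE 0.18, adjusted p = 0.0127 from edgeR), the change in knockout mice was -0.34 (SE 0.20), and the interaction of 0.60 (SE 0.27, adjusted p = 0.451) was 0.63 without the 3 libraries.

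*Ebp*, an isomerase of the same pathway, was the nominal member below 0 (-0.45, SE 0.18, and -0.23 without the 3 libraries), and 6 of the 26 members had an interaction below 0. Fatty acid synthesis genes had -0.36 and -0.11, with 1 of 18 nominal in the interaction. That gene was *Scd2*, a stearoyl-CoA desaturase, which fell in control mice by 0.92 (SE 0.16, adjusted p = 0.0107 from edgeR) beside -0.31 (SE 0.19) in knockout mice. Its interaction of 0.61 (SE 0.25) was 0.28 without the 3 libraries.

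Heat shock genes, which follow body temperature among other stresses, had medians of 0.40 in control and 0.69 in knockout mice and no nominal interaction among 20 members. Nominally higher at ZT12 were 1 member in control and 8 in knockout mice, beside 1862 and 793 of all 20256 genes tested. Their mean level was -0.30 (-0.80 to 0.74) and 0.37 (-0.47 to 1.07) in control mice and -0.86, -0.33, -0.0072 and -0.92 and 1.10, -0.63, -0.29, 0.91 and 0.12 in knockout mice, with wide overlap in both genotypes. *Hspa1a* and *Hspa1b*, inducible chaperone genes with near-identical sequence and here chosen after their values were seen, had changes of 1.06 and 1.16 in control and 3.00 and 3.09 in knockout mice, with interactions of 1.94 (SE 1.64) and 1.92 (SE 1.63). The 2 cold-inducible RNA-binding genes had medians of 0.31 and 0.19.

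Gene length moved with the interaction. Over protein-coding genes with at least 5 CPM, split into 10 length classes of nearly equal size, the median change in control mice went from 0.20 in the shortest class (median 1433 bases) to -0.16 in the longest (median 12806 bases). In knockout mice it went from -0.040 to 0.063, so that the median interaction went from -0.27 to 0.23. Cytosolic ribosomal protein and respiratory chain genes are short (medians of 1754 and 1688 bases) and chromatin regulators are long. Among control-only genes the median length was 2172 bases for an interaction below 0 and 5784 for one above 0. Removing each library's trend left 952 nominal genes above 0 and 1136 below, with smaller medians for the short and long lists and nearly the same median for immediate early genes (-0.73).

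**Figure D4:**
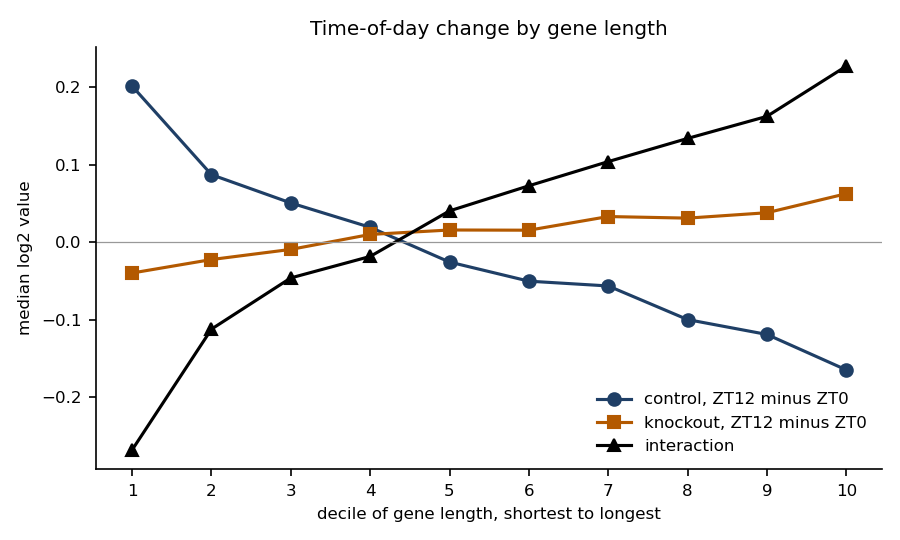
Median log2 change from ZT0 to ZT12 in control mice (circles) and knockout mice (squares) and median interaction (triangles), all on the y axis, by decile of gene length (x axis) for protein-coding genes with at least 5 CPM. The control line runs from 0.20 to -0.16, the knockout line from -0.040 to 0.063 and the interaction from -0.27 to 0.23.

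**Figure D5:**
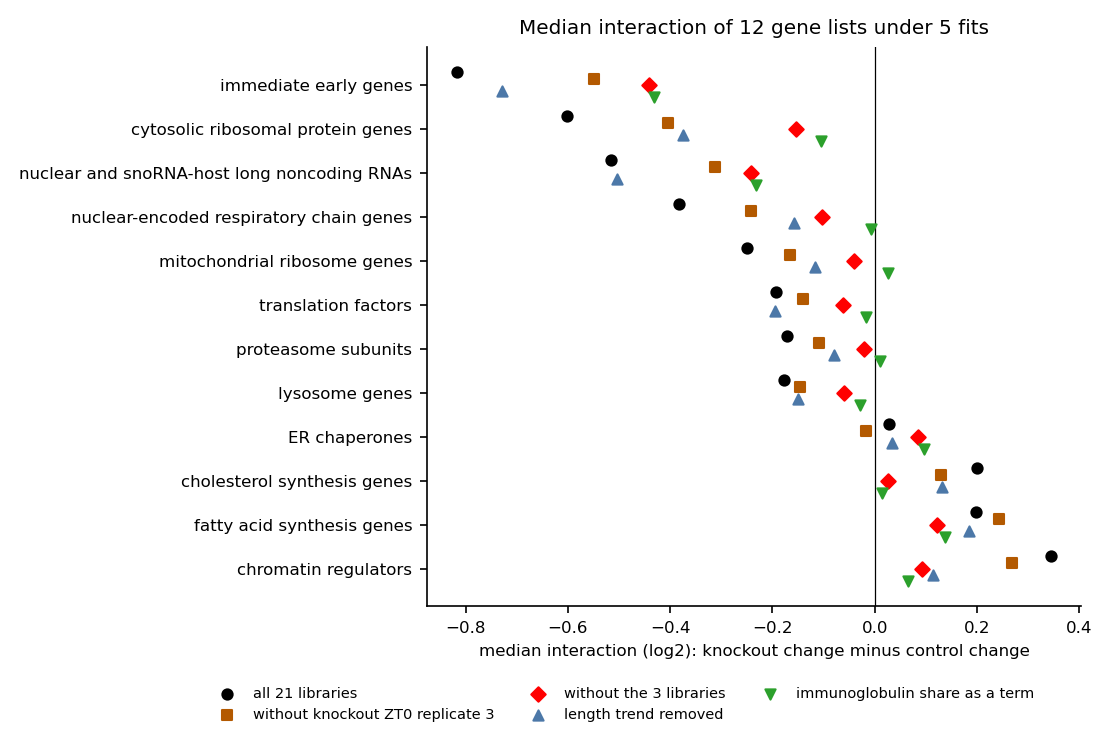
Median interaction (log2, x axis) of 12 gene lists (y axis) with all 21 libraries, without knockout ZT0 replicate 3, without the 3 libraries with the steepest length trend, with the length trend removed, and with the immunoglobulin share as a term of the fit. Immediate early genes stay below 0 in all 5 fits, from -0.82 to -0.43, whereas respiratory chain genes move from -0.38 to -0.0065.

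Immunoglobulin transcripts, the main product of these cells, differed in their time-of-day change as a share of each library. In control mice the share of all immunoglobulin genes was 53.2% (51.5% to 53.3%) at ZT0 and 57.0% (53.3% to 63.6%) at ZT12. In knockout mice it was 53.7%, 53.6%, 59.4% and 53.6% at ZT0 and 53.7%, 54.3%, 55.7%, 55.5% and 53.8% at ZT12. Each control mouse at ZT12 was above each at ZT0, the lowest only just, and in knockout mice all but 1 of the mice at ZT0 were below those at ZT12. The mean change was 4.56 percentage points in control mice and -0.449 in knockout mice, an interaction of -5.01 points (two-sided exact permutation test over 97020 splits, p = 0.0306, and 0.0366 adjusted over 2 tests). Constant region genes gave -5.96 points (exact permutation p = 0.0366, two-sided). Permuting genotypes within each time assumes no genotype difference at either time, which is broader than no interaction. The test also assumes like spreads. For all immunoglobulin genes the SD was 0.72 and 3.99 points in control mice at ZT0 and ZT12, and 2.91 and 0.95 in knockout mice. The exact p was 0.075 without knockout ZT0 replicate 3, 0.0552 without knockout ZT12 replicate 1 and 0.0547 without knockout ZT12 replicate 5, and without the 3 libraries the interaction was -1.48 points (exact p = 0.286). *Igha* and *Igkc*, the heavy chain of IgA and the kappa light chain, had interactions of -0.43 (SE 0.18) and -0.45 (SE 0.18) in the fit over all genes, and -0.086 and -0.14 without the 3 libraries.

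Markers of other cells varied between mice. Summed epithelial markers ranged from 55.5 to 1093 CPM over all mice, highest in control ZT12 replicate 5 and in knockout ZT12 replicate 5 (837 CPM). Their median change was 2.42 in control and 2.61 in knockout mice, and 0 of 18 had a nominal interaction above 0 and 0 below. T cell and NK cell markers summed to 36.6 to 57.3 CPM, myeloid markers to 26.3 to 144.7 CPM and stromal and endothelial markers to 24.1 to 49.2 CPM, with 0 and 0, 0 and 0, and 2 and 0 members nominal above and below 0, of 15, 12 and 10. Markers of other B cells had 2 of 21 nominal below 0 and summed to 1305 to 3205 CPM, highest in control ZT12 replicate 2, while *Ms4a1* (CD20), which defines mature B cells, had a mean of 1.45 CPM. *Cd3e* and *Col1a1*, which define T cells and fibroblasts, had means of 0.42 and 0.23 CPM. In bulk libraries fewer cells of a type and less RNA per cell cannot be told apart, and the part of these cells in the genotype differences was not tested.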

How the data were processed

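Bulk poly-A RNA of sort-purified small intestinal CD138+ IgA+ cells from 21 mice was sequenced in paired reads (NEBNext Ultra, NovaSeq). Raw read counts of 53801 genes were deposited, with no normalization applied. The aligner, the counter, the use of strand and the build are not given in the sources used here, and the submitters' processing notes name DESeq2. Deposited gene starts fell inside the RefSeq GRCm38.p6 window of the same gene for 9678 of 12257 genes. All 46 within-group pairs of libraries differed beyond sampling noise (chi-square per gene 26.5 to 216).

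Genes reaching 10 counts over all libraries were fitted with edgeR 4.0.16 in R 4.3.3 (TMM factors, robust quasi-likelihood, 4 group means). Levels are TMM-normalized CPM, counts scaled to a common library size, fold changes are on the log2 scale, and Benjamini-Hochberg adjustment ran over all genes tested. DESeq2 1.42.0 was the alternative test. Lists were described by counts and medians, with no set test. The immunoglobulin share was tested by exact permutation of genotypes within each time. The scripts were tested on simulated data.

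Genes were named by a rule. Of protein-coding genes outside immunoglobulin loci with a mean of at least 5 CPM, it took the 8 with the smallest interaction p in each direction. From the same genes it took the 6 with the smallest p in each class. Without these limits on level and gene type, it added all genes called by DESeq2 and up to 3 nominal members per list. Clock genes with at least 1 CPM were added as well. Not all of those genes are printed. The members, lists and tests were chosen with earlier results of these data known. Depth limits low genes most, and counting error alone is small for the immunoglobulin share.

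The alternatives were DESeq2, DESeq2 size factors, library size only, filterByExpr or no count filter, a fit without immunoglobulin genes, the replicate number as a block, the immunoglobulin share, *Xist* level or epithelial marker level as a covariate, removal of each library's loess trend on gene length, an adjusted p under 0.01, and each library left out. Added after the data were seen were leaving out the 3 libraries with the steepest length trend, fits within high or low *Xist* libraries, and the set of table columns as a block.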

Additional observations from a re-analysis of the deposited data

Results flagged for a closer look

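Among 124 groups of mice tested, over 31 measures, 21 held a mouse that stood apart from its group by Dixon's criterion. Chance alone meets it in about 1 of 20 groups for independent measures that were not selected. These measures share the same mice and were partly picked by their interaction p, so the count cannot be set against that rate. All 8 such cases in knockout mice at ZT0 were replicate 3, which is 1 library seen in related measures. That library had *Junb* at 384 CPM (others 146 to 183), *Tpcn1* at 50.3 CPM (60.1 to 60.8), *Jak3* at 59.5 CPM (45.5 to 47.2) and *Psmb9* at 93.8 CPM (66.2 to 70.6). It also had respiratory chain genes at a log2 level of 0.34 (-0.092 to -0.077), chromatin regulators at -0.34 (0.075 to 0.10), an immunoglobulin share of 59.4% (53.6% to 53.7%) and a length slope of -0.13 (0.035 to 0.047).

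In knockout mice at ZT12, replicate 2 stood apart for *Fos* (547 CPM, others 178 to 218), *Rbl2* (21.4 CPM, 24.8 to 26.1), *Rps4x* (371 CPM, 299.6 to 314.5), immediate early genes (0.20, -0.44 to -0.32) and lysosome genes (0.13, -0.072 to -0.021), and replicate 1 for *Psmb9* (52.8 CPM, 61.3 to 63.9). In control mice at ZT12, replicate 2 stood apart for *Vegfa* (32.6 CPM, 1.70 to 9.28), *Hist1h4n* (9.78 CPM, 0.188 to 3.68) and cholesterol synthesis genes (-0.64, -0.22 to -0.12), and replicate 6 for *Arntl* (5.56 CPM, 4.00 to 4.56). In control mice at ZT0, replicate 6 stood apart for *Vegfa* (1.77 CPM, 0.589 to 0.927), replicate 3 for *Hist1h4n* (1.90 CPM, 0.309 to 0.776) and replicate 2 for the length slope (0.10, 0.025 to 0.049).

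In these results a test whose statistic was the interaction passed its threshold with all mice. For the immunoglobulin share, the permutation assumes no genotype difference at either time, which is broader than no interaction. The share of all immunoglobulin genes had an interaction of -5.01 percentage points and that of constant region genes -5.96 points (exact permutation test). For all immunoglobulin genes it was -3.55 points without knockout ZT0 replicate 3 (exact permutation p = 0.075). Without the 3 libraries with the steepest length trend it was -1.48 points (exact permutation p = 0.286). DESeq2 called *Tef* (-0.76 in edgeR's fit), *Smim10l2a* (1.91), *Vegfa* (-4.99) and *Hist1h4n* (-4.80), none of which edgeR called.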

How the results depend on the processing

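The number of genes called in the interaction was 0 by edgeR with all mice (2191 at an unadjusted p under 0.05), also at an adjusted p under 0.01, 4 by DESeq2, 1 with the length trend removed (*Tef*), 1 in high-*Xist* libraries (*Igkv4-62*), and 0 to 1 with each library left out (*Tef* without control ZT12 replicate 1). Nominal genes numbered 2191 with all mice, 1055 (without knockout ZT0 replicate 3) to 2922 (without control ZT12 replicate 6) with each library left out, 738 without the 3 libraries, 696 with the immunoglobulin share as a covariate and 421 in low-*Xist* libraries. Control-only genes (1122) numbered 550 (without knockout ZT0 replicate 3) to 1805 (without control ZT12 replicate 1) with 1 library left out, 281 without the 3 libraries, 260 with the immunoglobulin share, 608 in high-*Xist* and 182 in low-*Xist* libraries. Knockout-only genes (494) numbered 251 (without knockout ZT0 replicate 3) to 698 (without knockout ZT0 replicate 2), 230, 223 and, in low-*Xist* libraries, 100. Opposite genes (50) numbered 15 (without knockout ZT0 replicate 3) to 93 (without knockout ZT0 replicate 4), 11, 26, 114 in high-*Xist* and 7 in low-*Xist* libraries, 23 with library size only, 33 with the *Xist* level, 28 with the epithelial marker level and 31 with the column set as a term. The cause of these shifts was not tested, and fits on subsets also have fewer mice.

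The immunoglobulin share interaction was -5.82 to -3.55 points with each library left out and -1.48 points without the 3 libraries. Signs of interactions turned for *Bhlhe41* (0.034 with library size only, 0.086 with the immunoglobulin share, 0.061 without the 3 libraries), *Bhlhe40* (-0.39 with the share, -0.35 without the 3 libraries), *Nr1d1* (-0.032 with the share, -0.76 in low-*Xist* libraries), *Igha* (0.035), *Igkc* (0.0079), *Prdx4* (0.0065) and *Sec61b* (0.0080) with the share, *Igkc* (0.012) with the length trend removed, *Ciart* (0.017) without the 3 libraries and *Sgk1* (-0.020) in low-*Xist* libraries. With each library left out, *Bhlhe40* ranged from -0.054 to 0.28 and *Nr1d1* from -0.47 to 0.47. All other named genes that were recomputed under each alternative kept their sign. *Hspa1a* and *Hspa1b* were not among them. Of 660 list medians under the other alternatives, 108 moved by more than the spread between mice, as did 12 of 924 with 1 library left out.

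Mice of the groups share replicate numbers, but same-numbered mice did not deviate together (mean correlation of their deviations -0.012, from -0.41 to 0.41, against 0.003 for other pairs), so the numbers were not taken as pairs. With the replicate number as a block, 1833 genes were nominal (990 above and 843 below 0) and 0 were called, with 972 control-only, 351 knockout-only and 27 opposite genes, and *Nr1d1* had an interaction of -0.010.

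Genes with few counts, such as *Arntl*, *Smim10l2a* and *Deptor*, are limited by depth. A missed threshold does not show that the genotypes are alike.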
